A study of Mus musculus with 12 samples.

Results

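The genes described here are 10 genes of mitophagy and autophagy, out of 23422 gene identifiers in the series, measured in 12 RNA-seq libraries. They were taken by symbol: the receptors Bnip3, Bnip3l and Fundc1, the kinase Pink1, the ATG8 genes Map1lc3a, Map1lc3b and Gabarapl1, the cargo receptor Sqstm1, and the initiation genes Ulk1 and Becn1. The list was drawn up with earlier results of these data known. The libraries were made from primary lung endothelial cells of C57BL/6J mice (wild type) and of Mlk2-/-Mlk3-/- mice (double knockout), labelled as lacking the genes of the mixed lineage kinases MLK2 and MLK3. Monolayers of each genotype were kept at 21% oxygen (normoxia) or placed at 1% oxygen for 90 min (hypoxia), which gave 4 groups of 3 libraries. The series asked which pathways lie downstream of these kinases. All groups were grown in the same medium with fetal bovine serum and endothelial mitogen. The labels do not say how many mice the cells came from, nor whether the 3 libraries of a group were separate cultures, so every p below measures only the spread between these libraries.

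Mitophagy is the removal of mitochondria by autophagosomes. In its receptor-driven form, BNIP3, BNIP3L (also called NIX) and FUNDC1 sit in the outer mitochondrial membrane and bind ATG8 proteins on the growing autophagosome, whereas PINK1 builds up on damaged mitochondria and activates the ubiquitin ligase Parkin. ULK1 starts autophagosome formation, Beclin 1 (Becn1) belongs to the lipid kinase complex that acts next, LC3 (Map1lc3a, Map1lc3b) and GABARAP proteins coat the membrane, and p62 (Sqstm1) carries ubiquitin-tagged cargo to it. Bnip3 is a textbook target of hypoxia-inducible factor (HIF), and in endothelium autophagy is known for its part in the response to shear stress and in the secretion of von Willebrand factor. The values are mRNA levels and measure neither protein nor mitophagic flux.

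Levels are the authors' FPKM values (fragments scaled to transcript length and sequencing depth), summed over the transcripts of each gene. Differences are on the log2(FPKM + 1) scale from a limma fit of all 12 libraries, with p adjusted by Benjamini-Hochberg over the 11378 genes averaging 1 FPKM or more. All 10 genes passed that filter. The steps in the low values put the depth at an estimated 21100000 to 25800000 fragments per library. Map3k10 (MLK2) lay at 16.6 to 19.2 FPKM in wild type libraries. In double knockout libraries it lay at 0.131 to 0.169 FPKM in normoxia and at 1.02 to 1.34 FPKM in hypoxia. These double knockout groups did not overlap, and the cause was not tested. Map3k11 (MLK3) lay at 31.9 to 36.4 FPKM in wild type and was still listed at 10.9 to 12.2 FPKM in double knockout libraries. The values do not tell which part of the gene was deleted. All 10 pan-endothelial markers were present, with a summed level of 4271 to 4516 FPKM in wild type and 4327 to 4505 FPKM in double knockout libraries. Among 6 epithelial markers, 4 were under 0.1 FPKM in every library, with Scgb1a1 at 0 throughout, and Ager reached at most 2.99 FPKM.

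The sequences before Bnip3 and Map1lc3b are shown because they held the most HIF core matches among the genes with a promoter sequence. RefSeq promoter sequences (GRCm38.p6) were found for 7 of the 10 genes, and none for Bnip3l, Map1lc3a and Becn1. The 250 bases before each RefSeq start were searched on both strands for ACGTG and GCGTG, the core letters of the HIF site. Overlapping matches were counted. Bnip3 held 5 matches, of which a pair are the opposite strands of 1 palindrome, CACGTG, and Map1lc3b also held 5. Pink1 and Ulk1 each held 1 match. Fundc1, Gabarapl1 and Sqstm1 held 0, and the window of Fundc1 lies wholly inside the gene as GENCODE draws it. Of 32851 mouse promoters, 38.6% held at least 1 match, 1.01% held at least 5 and 6.02% held CACGTG. The printed stretches stop before the first base that GENCODE M21 annotates as transcribed. They are given 5′ to 3′ on the strand of the gene, chr7:138909520-138909756 on the minus strand for Bnip3 (237 bases, all 5 matches) and chr8:121590188-121590360 on the plus strand for Map1lc3b (173 bases, 4 of its 5 matches), with the matches in capitals.
Bnip3: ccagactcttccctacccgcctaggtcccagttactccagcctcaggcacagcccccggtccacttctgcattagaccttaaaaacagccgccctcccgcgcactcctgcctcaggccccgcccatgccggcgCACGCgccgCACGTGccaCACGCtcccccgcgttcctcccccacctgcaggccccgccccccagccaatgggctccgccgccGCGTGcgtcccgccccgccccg
Map1lc3b: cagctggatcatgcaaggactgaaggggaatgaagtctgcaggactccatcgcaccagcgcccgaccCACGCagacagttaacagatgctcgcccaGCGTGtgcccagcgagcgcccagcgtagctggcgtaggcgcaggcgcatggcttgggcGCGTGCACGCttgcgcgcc
In Bnip3, 4 of the matches lie between 117 and 95 bases before the start and the other lies at 35 to 31 bases. In Map1lc3b they are spread from 183 to 60 bases. A match is a run of letters, not a bound site, and binding was not measured. Whether the matches bear on the levels was not tested.

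**Figure D1:**
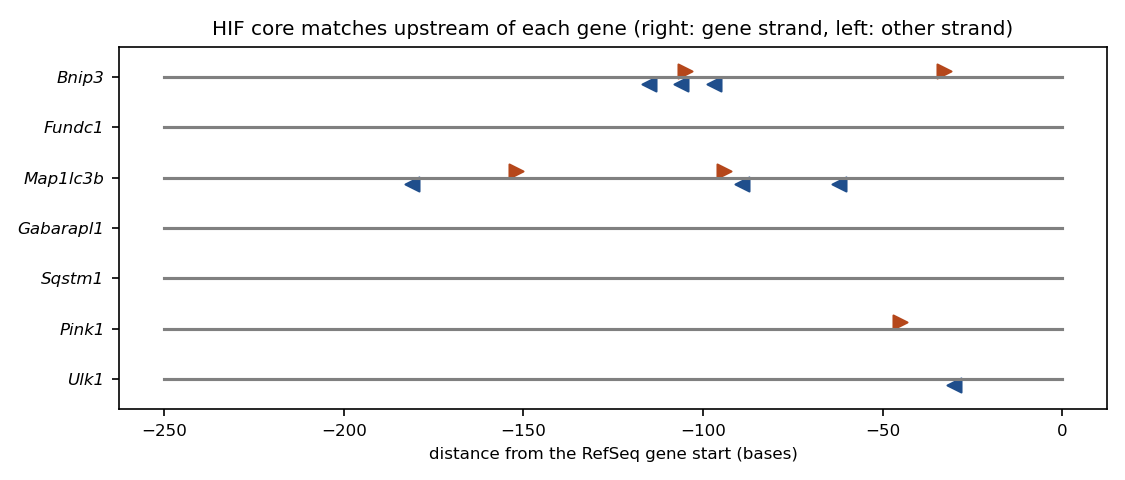
HIF core matches (ACGTG or GCGTG) in the 250 bases before the RefSeq start of 7 genes. The horizontal axis is the distance from the start in bases, and each triangle is a match, red and pointing right on the strand of the gene, blue and pointing left on the other strand. Bnip3 and Map1lc3b hold 5 matches each, Pink1 and Ulk1 hold 1, and the other genes hold 0.

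Of the 10 genes, Sqstm1 was the most abundant and Ulk1 the least abundant in every group. Sqstm1 had group means of 830 to 900.5 FPKM and ranked between 120 and 129 among the 11378 genes. Gabarapl1 came second at 269 to 313 FPKM, then Map1lc3b at 156 to 159.8 FPKM and Becn1 at 117 to 129 FPKM. Of the Becn1 sum, 37.7 to 47.9% came from 1 short transcript of 375 bases, so the place of Becn1 is less sure. Ulk1 lay at 4.44 to 4.91 FPKM. Bnip3 moved from rank 9 in normoxia to rank 5 in hypoxia in both genotypes, passing Map1lc3a, Fundc1, Pink1 and Bnip3l. The one other change of order was that Pink1 stood above Bnip3l in double knockout normoxia and below it elsewhere. Among all genes tested, the level rank of Bnip3 went from 5709 to 917 in wild type and from 5753 to 990 in double knockout cells. Neighbours in the order did not overlap between libraries, except Bnip3l (58.7 to 60.4 FPKM) and Pink1 (54.7 to 62.9 FPKM) in wild type normoxia.

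**Figure D2:**
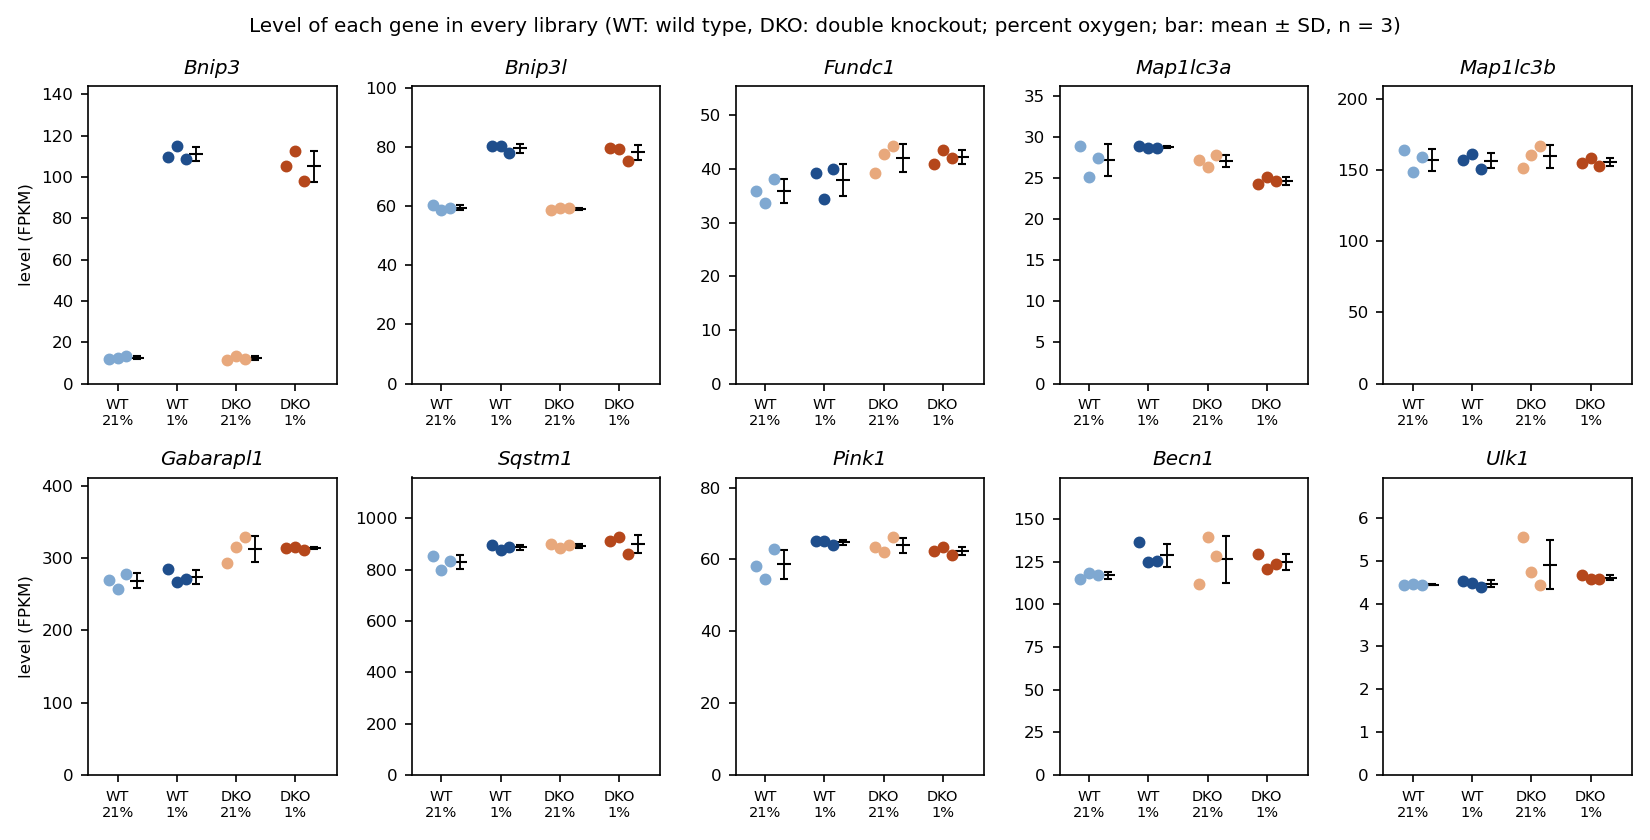
Level in FPKM of each of the 10 genes (vertical axis, from 0) in the 4 groups (WT, wild type; DKO, double knockout; percent oxygen), with 1 point per library and the mean ± SD of 3 libraries beside it. The hypoxia libraries of Bnip3 lie at 97.8 to 115 FPKM against 11.6 to 13.4 FPKM in normoxia, and those of Bnip3l at 75.4 to 80.5 FPKM against 58.6 to 60.4 FPKM.

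Within groups the 10 genes were tight, with a coefficient of variation from 0.318% to 11.7%. The widest spreads were those of Ulk1 (11.7%) and Becn1 (10.9%) in double knockout normoxia. Libraries leaned together: in wild type normoxia, the second library was the lowest for 7 of the 10 genes, and in double knockout hypoxia the third library was the lowest for 7. Over the 12 libraries, deviations from the group means were positively correlated in 32 of 45 pairs of the genes (median r = 0.32, from FPKM values that share a library and its scaling). The highest r was 0.80, between Fundc1 and Gabarapl1. The lowest was -0.69, between Gabarapl1 and Ulk1.

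Of the 3 outer-membrane receptors, Bnip3 and Bnip3l rose at 1% oxygen and Fundc1 did not pass the test. For Bnip3 (ENSMUSG00000078566; chromosome 7, 138890836 to 138909519, minus strand, GRCm38) the normoxic wild type libraries held 11.9, 12.5 and 13.4 FPKM, and the hypoxic ones 109.7, 115 and 109 FPKM. Normoxic double knockout libraries held 11.6, 13.4 and 12.0 FPKM, against 105, 113 and 97.8 FPKM in the hypoxic ones. Every hypoxia library was thus far above every normoxia library in both genotypes. The group means of 12.6 ± 0.745 and 111 ± 3.52 FPKM (SD, n = 3) in wild type gave a ratio of 8.84, and those of 12.3 ± 0.949 and 105 ± 7.48 FPKM in double knockout a ratio of 8.54. On the log2 scale Bnip3 rose by 3.05 (SE 0.06, limma adjusted p = 8.0e-11) in wild type and by 3.00 (SE 0.06, limma adjusted p = 9.79e-11) in double knockout cells. These increases ranked 5 and 4 among all 11378 genes. Of the markers of other cells, the epithelial gene Ager also moved with oxygen (log2 differences 0.77 and 0.80, both called), and the part of such cells in the Bnip3 result was not tested.

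Bnip3l (ENSMUSG00000022051; chromosome 14, 66985239 to 67008877, minus strand) encodes the closest relative of BNIP3, best known for clearing mitochondria from maturing red cells. Normoxic wild type libraries held 60.4, 58.7 and 59.3 FPKM, against 80.5, 80.4 and 77.9 FPKM in hypoxic ones. The double knockout libraries read 58.6, 59.3 and 59.4 FPKM before and 79.8, 79.3 and 75.4 FPKM after the switch to 1% oxygen. The groups did not overlap in either genotype, and the increase was small beside that of Bnip3. The ratio of means was 1.34 in wild type (log2 difference 0.41, SE 0.03, limma adjusted p = 5.73e-06) and 1.32 in double knockout cells (0.40, SE 0.03, limma adjusted p = 4.19e-06). It ranked 299 among the increases in wild type and 561 in double knockout cells.

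Fundc1 (ENSMUSG00000025040; chromosome X, 17556564 to 17572325, minus strand) encodes a receptor that is known to be controlled by phosphorylation in hypoxia. Its normoxic wild type levels of 36.0, 33.6 and 38.1 FPKM overlapped the hypoxic ones of 39.3, 34.4 and 40.1 FPKM. The log2 difference was 0.08 with a 95% confidence interval from -0.07 to 0.22 (limma adjusted p = 0.446). The double knockout difference was 0.01, with an interval from -0.14 to 0.15.

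The receptor pool therefore shifted in make-up. The summed level of the 3 receptors went from 107.9 ± 2.94 to 229 ± 1.82 FPKM in wild type and from 113 ± 3.61 to 226 ± 10.2 FPKM in double knockout cells (SD, n = 3). Bnip3 made up 11.7% ± 0.599 of that sum in wild type normoxia and 48.6% ± 1.28 in wild type hypoxia. The double knockout share went from 10.9% ± 0.663 to 46.6% ± 1.20. Per length, Bnip3 mRNA was at 0.212 times the Bnip3l level in wild type normoxia and at 1.40 times in hypoxia, against 0.209 and 1.35 times in double knockout cells. In bulk samples like these, more RNA per cell and more cells that hold the RNA cannot be told apart.

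**Figure D3:**
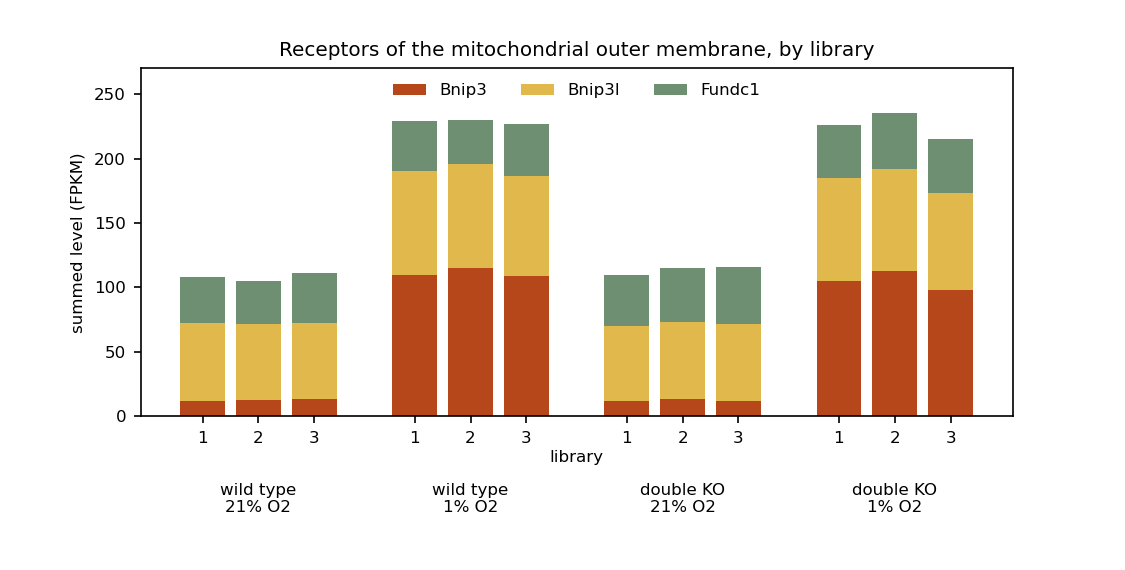
Summed FPKM of Bnip3 (red), Bnip3l (yellow) and Fundc1 (green) in each of the 12 libraries, grouped by genotype and oxygen (vertical axis from 0). The normoxia libraries sum to 105 to 116 FPKM and the hypoxia libraries to 215 to 236 FPKM, and the red part is where most of the difference lies.

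In all, 3 of the 10 genes were called higher in wild type hypoxia (Bnip3, Bnip3l and Pink1) and 0 lower, while 20.8% of all genes tested passed, 10.5% as higher and 10.4% as lower. The median log2 difference was 0.09 over the 10 genes and 0.00 over all genes. Groups did not overlap for 5 of the 10, which adds Sqstm1 and Becn1 and all higher, against 38.3% of all genes in either direction and 18.8% higher. Under hypoxia in double knockout cells 3 of the 10 passed (Bnip3 and Bnip3l higher, Map1lc3a lower), against 39.3% of all genes (19.6% higher and 19.6% lower), and the median was -0.005 against 0.01. Beside those shares neither count is read as particular to these genes. Groups did not overlap for these same 3 genes, against 50.3% of all genes.

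Pink1 (ENSMUSG00000028756; chromosome 4, 138313409 to 138326307, minus strand) encodes the kinase that marks damaged mitochondria. Normoxic wild type libraries held 58.2, 54.7 and 62.9 FPKM, against 65.2, 65.1 and 64.0 FPKM in hypoxic ones. All hypoxia libraries were above all normoxia libraries by a narrow margin. The log2 difference was 0.14 (SE 0.05, limma adjusted p = 0.0444), a ratio of 1.11. The call ended in 15 of 20 alternative settings, with adjusted p up to 0.143. The double knockout groups overlapped, at 63.3, 62.1 and 66.2 FPKM without and 62.4, 63.5 and 61.2 FPKM with hypoxia (log2 difference -0.03, limma adjusted p = 0.594).

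The ATG8 genes moved little with oxygen. Map1lc3b (ENSMUSG00000031812; chromosome 8, 121590361 to 121598760, plus strand), which encodes LC3B, the usual marker of autophagosomes, held 164, 149 and 159 FPKM in normoxic wild type libraries and 157, 162 and 151 FPKM in hypoxic ones. Its log2 difference was -0.01 with a 95% confidence interval from -0.11 to 0.09 (limma adjusted p = 0.935). Normoxic double knockout libraries held 151, 160.5 and 167 FPKM and hypoxic ones 155, 159 and 153 FPKM, with a difference of -0.04 and an interval from -0.14 to 0.06. Under quantile normalization that difference passed, at -0.10 (limma adjusted p = 0.0412). The groups overlapped in both genotypes.

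Map1lc3a (ENSMUSG00000027602; chromosome 2, 155276297 to 155278073, plus strand) encodes LC3A, a second LC3 protein. Normoxic wild type libraries held 29.0, 25.1 and 27.5 FPKM, which overlapped the 28.9, 28.7 and 28.7 FPKM of the hypoxic ones, and the difference of 0.08 did not pass (limma adjusted p = 0.255). Normoxic double knockout libraries held 27.2, 26.4 and 27.8 FPKM, against 24.2, 25.2 and 24.6 FPKM in hypoxic ones. All double knockout hypoxia libraries were the lower ones, and Map1lc3a fell by 0.13 on the log2 scale (SE 0.05, limma adjusted p = 0.0442). That call ended in 14 of 20 alternative settings, with adjusted p up to 0.123.

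Gabarapl1 (ENSMUSG00000030161; chromosome 6, 129533160 to 129542346, plus strand) encodes a GABARAP-type ATG8 protein. Normoxic wild type libraries held 269.7, 258 and 278 FPKM, and hypoxic ones 285, 267 and 271 FPKM. The double knockout libraries lay higher, at 294, 315 and 329 FPKM without hypoxia and 314, 315 and 312 FPKM with it. Oxygen gave overlapping groups in both genotypes, with log2 differences of 0.03 and 0.01 (limma adjusted p = 0.671 and 0.938). Under quantile normalization the double knockout difference turned to -0.11 and passed the test (limma adjusted p = 0.0105).

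Sqstm1 (ENSMUSG00000015837; chromosome 11, 50199366 to 50210827, minus strand) encodes p62, the cargo receptor. Its wild type libraries held 855, 800.1 and 835 FPKM without hypoxia and 897, 875 and 888 FPKM with it. The hypoxia libraries were all higher, yet the log2 difference of 0.10 did not pass (95% confidence interval 0.02 to 0.17, limma adjusted p = 0.0787). The double knockout groups overlapped, with 899, 883 and 897 FPKM in normoxic and 911, 927 and 863 FPKM in hypoxic libraries.

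The initiation genes did not pass either. Becn1 (ENSMUSG00000035086; chromosome 11, 101285952 to 101302286, minus strand), the Beclin 1 gene, held 115, 118 and 117 FPKM in normoxic and 137, 125 and 125 FPKM in hypoxic wild type libraries, without overlap (log2 difference 0.14, limma adjusted p = 0.167). The normoxic double knockout libraries (112, 139 and 128 FPKM) spanned the hypoxic ones (129.6, 121 and 124 FPKM). Ulk1 (ENSMUSG00000029512; chromosome 5, 110784488 to 110810097, minus strand), the initiation kinase gene, held 4.43, 4.45 and 4.42 FPKM in normoxic and 4.54, 4.48 and 4.38 FPKM in hypoxic wild type libraries, with a log2 difference of 0.01 (95% confidence interval -0.14 to 0.15). The double knockout groups overlapped, with 5.55, 4.73 and 4.44 FPKM in normoxic and 4.67, 4.57 and 4.56 FPKM in hypoxic libraries, and the first normoxic library stood highest.

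**Figure D4:**
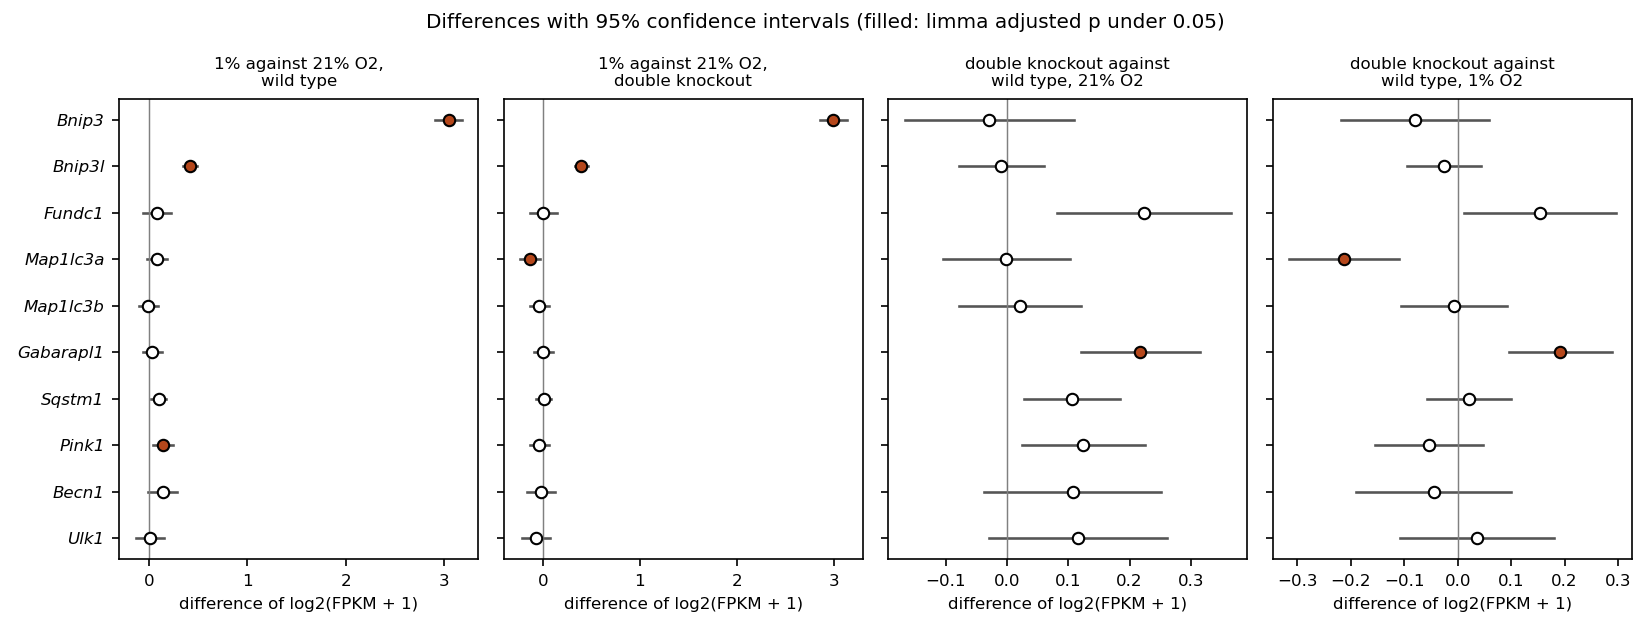
Differences of log2(FPKM + 1) for the 10 genes in 4 comparisons, with 95% confidence intervals from limma (horizontal axes differ between panels). Filled points passed an adjusted p of 0.05. Bnip3 at 3.05 and 3.00 and Bnip3l at 0.41 and 0.40 stand apart in the oxygen comparisons, and Gabarapl1 (0.22 and 0.19) is filled in both genotype comparisons.

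Between genotypes, Gabarapl1 passed at both oxygen levels (higher in double knockout cells) and Map1lc3a in hypoxia alone (lower). Map1lc3b passed at neither level, and all were compared in the same 12 libraries as oxygen was. In normoxia 1 of the 10 genes passed, Gabarapl1, against 8.16% of all genes (3.84% higher and 4.32% lower in double knockout cells), and the median log2 difference was 0.11 over the 10 genes against -0.01 over all. Gabarapl1 was higher in double knockout cells by 0.22 (SE 0.04, limma adjusted p = 0.0103), a ratio of 1.16, and its lowest double knockout library (294 FPKM) lay above its highest wild type library (278 FPKM). The call ended when only the 6 normoxia libraries were fitted (adjusted p = 0.0610). Groups did not overlap for 3 of the 10 genes, Fundc1, Gabarapl1 and Sqstm1, all higher in double knockout cells, against 25.7% of all genes in either direction and 11.6% higher. Fundc1, at 39.2, 42.7 and 44.4 FPKM in double knockout normoxia, differed by 0.22 (SE 0.07), just short of the test (limma adjusted p = 0.0580). It passed in 4 of 20 alternative settings. Pink1 (0.12, limma adjusted p = 0.133) passed only without the third wild type normoxia library, and Becn1 (0.11, limma adjusted p = 0.393) only without the first double knockout normoxia library, at adjusted p = 0.0316 and 0.0450.

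In hypoxia 2 of the 10 genes passed, against 16.1% of all genes (7.68% higher and 8.42% lower), and the median was -0.02 against -0.005. Beside the shares over all genes, neither genotype count is read as particular to these genes. Gabarapl1 was again higher in double knockout cells, by 0.19 (SE 0.04, limma adjusted p = 0.0127, ratio 1.14), with adjusted p = 0.0543 when the second wild type hypoxia library was left out. Map1lc3a was lower, with a difference of -0.21 (SE 0.05, limma adjusted p = 0.0102, ratio 0.858), and kept this call in 20 of 20 alternative settings, with adjusted p up to 0.0421. Its double knockout libraries lay at 24.2 to 25.2 FPKM and its wild type libraries at 28.7 to 28.9 FPKM. Groups did not overlap for 5 of the 10 genes (Fundc1, Gabarapl1 and Ulk1 higher, Map1lc3a and Pink1 lower), against 35.8% of all genes. Fundc1 was at 41.0, 43.6 and 42.1 FPKM in double knockout hypoxia, a difference of 0.15 that did not pass (limma adjusted p = 0.139).

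The mix of ATG8 mRNAs differed accordingly. Over 5 ATG8 genes (Map1lc3a, Map1lc3b, Gabarap, Gabarapl1, Gabarapl2), the summed level was 794 ± 32.3 and 802 ± 18.3 FPKM in wild type normoxia and hypoxia, and 847 ± 29.4 and 821 ± 18.0 FPKM in double knockout cells. Gabarapl1 made up 33.8% ± 0.0928 and 34.2% ± 0.791 of it in wild type normoxia and hypoxia. Double knockout shares were 36.9% ± 0.871 and 38.2% ± 0.690 (SD, n = 3). The share was 33.3 to 34.8% in the 6 wild type libraries and 36.1 to 38.6% in the 6 double knockout libraries, which did not overlap. The Gabarap share was apart the other way, at 35.5 to 36.4% in wild type and 32.6 to 34.9% in double knockout libraries. Its level did not pass between genotypes. Wild type against double knockout means were 286 against 290 FPKM in normoxia (limma adjusted p = 0.819) and 286 against 272 FPKM in hypoxia (limma adjusted p = 0.244). Shares of Map1lc3a, Map1lc3b and Gabarapl2 overlapped between genotypes. These shares are made from the levels compared above and are not a separate test.

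Marker genes of other cells moved with genotype too. The 7 macrophage markers (8 gene identifiers) summed to 5.27 to 7.02 FPKM in wild type and 7.33 to 10.9 FPKM in double knockout libraries, none was at 0 in all libraries, and 1 of the 3 that were tested was called higher in double knockout cells at each oxygen level. The 9 fibroblast and mural markers summed to 3.69 to 6.04 and 8.50 to 10.5 FPKM, 3 of them were under 0.1 FPKM in every library, and both that were tested were called higher. The part of these cells in the Gabarapl1 and Map1lc3a differences was not tested.

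Bnip3 and Bnip3l did not differ detectably between genotypes. For Bnip3 the log2 difference of double knockout against wild type was -0.03 in normoxia (95% confidence interval -0.17 to 0.11) and -0.08 in hypoxia (-0.22 to 0.06). For Bnip3l it was -0.01 (-0.08 to 0.06) and -0.03 (-0.09 to 0.04). The difference between the 2 hypoxia responses was tested directly. For Bnip3 it was -0.05 with a 95% confidence interval from -0.25 to 0.14 (limma adjusted p = 0.820), and for Bnip3l -0.02, from -0.11 to 0.08. The interval for Bnip3 is narrow beside its response of about 3 log2 units.

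By limma, 0 of the 10 genes passed for this difference, against 0.193% of all genes. All 10 differences were below 0, with a median of -0.07 against 0.00 over all genes, of which 5796 of 11378 lay above 0. The 10 signs are not independent, since the genes leaned together by library as described above. At an unadjusted p under 0.05 there were 2 of the 10, against 16% of all genes. Map1lc3a responded by 0.08 in wild type and by -0.13 in double knockout cells, a difference of -0.21 (95% confidence interval -0.36 to -0.07, limma adjusted p = 0.154). Pink1 responded by 0.14 and -0.03, a difference of -0.18 (-0.32 to -0.04, limma adjusted p = 0.210).

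The transcript rows showed which mRNA carried each sum. Bnip3 and Map1lc3a had 1 row each, and Bnip3l rested on Bnip3l-201 alone. Sqstm1-202 held 92.3 to 94.1% of the Sqstm1 sum, Gabarapl1-201 held 94.7 to 99.1%, Pink1-201 held 92.3 to 96.9% and Ulk1-201 held 94.6 to 100% in each library. Becn1 was different: Becn1-204, a short annotated transcript of 375 bases, held 37.7 to 47.9% of the sum, and Becn1-205 of 4365 bases held 22.1 to 27.4%. The Becn1 sum thus rests in large part on a very short row. Fundc1 was split between Fundc1-201 (52.3 to 68.7%) and Fundc1-205 (31.3 to 47.7%), and Map1lc3b between Map1lc3b-201 (49.7 to 56.5%) and the shorter Map1lc3b-203 and Map1lc3b-205. Of 22 transcript rows tested, 2 passed in wild type hypoxia (those of Bnip3 and Bnip3l) against 9.61% of all 18090 transcripts. In double knockout hypoxia 3 passed against 24.6%, which adds the minor Sqstm1-201 (log2 difference 0.13, limma adjusted p = 0.0175). That call ended in 4 of 16 alternative settings (adjusted p up to 0.265): under quantile normalization and without the second or the third normoxic or the third hypoxic double knockout library. For the difference of the responses, 0 of 22 passed by limma and 1 had an unadjusted p under 0.05, against 0 and 12% of all transcripts.

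Some reads may be shared with other genes. Transcripts of 6 of the 10 genes match another gene at 95% identity or more over at least 200 bases. For Bnip3, Bnip3l and Map1lc3b these are mostly pseudogenes, of which 1 is in the deposited table (Gm5612, listed at 0). For Gabarapl1, Sqstm1 and Becn1 they are genes that overlap on the other strand. Gabarapl1 shares 570 of its 2013 exon bases with 1700101I11Rik, and Bnip3 shares 504 with Gm45507. Neither partner is listed in the deposited table, so no level can be given for them. Sqstm1 shares 580 exon bases with the antisense gene Mrnip (mean 0.982 FPKM), Becn1 shares 3104 with Cntd1 (0.0172 FPKM), and Map1lc3b shares 58 with Zcchc14 (16.0 FPKM). The sources used here do not say how shared reads were assigned or whether strand was used.

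Around these 10 genes, 125 other genes of mitophagy, autophagy and lysosomes were tested in 12 lists. In wild type hypoxia 14 rose, 11 fell and 100 did not pass, with a median of 0.01 against 0.00 over all genes. In double knockout hypoxia 22 rose, 30 fell and 73 did not pass, with a median of -0.02 against 0.01. These are shares of the size seen over all genes (20.8% and 39.3% called). For the difference of the responses 0 of the 125 passed by limma.

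Among other mitophagy receptors and regulators, 3 of 20 rose and 1 fell in wild type hypoxia, and 8 rose and 4 fell in double knockout hypoxia. Fbxl4, the ubiquitin ligase subunit that limits BNIP3 and BNIP3L protein, fell from 9.16 to 6.97 FPKM in wild type (log2 difference -0.35, limma adjusted p = 0.00518) and from 8.78 to 5.92 FPKM in double knockout cells (-0.50, limma adjusted p = 0.000206). Phb2, an inner-membrane receptor, rose by 0.12 and 0.10, and Tbk1, a kinase of cargo receptors, rose by 0.14 and 0.29. March5, an outer-membrane ubiquitin ligase, rose by 0.10 in wild type, a call that ended in 13 of 20 alternative settings, and by 0.19 in double knockout cells (limma adjusted p = 0.000796), where it ended in 0 of 20. Of 8 genes of mitochondrial fission and fusion (labelled mitochondrial fission in the figure of the lists), Mff rose and Mief1 and Oma1 fell in wild type hypoxia. In double knockout hypoxia Mief1, Mief2 and Oma1 fell. Mief1 encodes an adaptor for the fission GTPase and went from 11.8 to 9.78 and from 11.4 to 8.66 FPKM.

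The 4 other genes of the initiation complex did not pass in any comparison. In the list of the class III lipid kinase complex and Beclin 1 partners, 1 of 9 genes rose and 3 fell in wild type hypoxia. In double knockout hypoxia 2 rose and 3 fell. Uvrag, a subunit of the late complex, rose from 54.7 to 65.6 FPKM (0.26, limma adjusted p = 0.00248) and from 61.2 to 79.5 FPKM (0.37, limma adjusted p = 6.84e-05). Nrbf2 fell by 0.28 in wild type and by 0.38 in double knockout cells. The catalytic subunit Pik3c3 and its partner Pik3r4 fell by 0.16 and 0.24 in wild type, calls that ended in 15 of 20 and 12 of 19 alternative settings. Both also fell in double knockout cells, by 0.22 and 0.30 (limma adjusted p = 0.00524 and 0.00781), and there the calls ended in 0 settings.

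Of 11 genes of the ATG8 conjugation machinery, 0 rose and 1 fell in wild type hypoxia, and 0 rose and 3 fell in double knockout hypoxia. Atg16l2, a relative of the scaffold gene Atg16l1, fell from 4.46 to 3.32 FPKM in wild type (-0.34) and from 5.44 to 2.46 FPKM in double knockout cells (-0.90, limma adjusted p = 1.71e-05). Gabarap and Gabarapl2 did not pass in any comparison. Of 9 genes for lipid supply and membrane growth, 3 rose in wild type hypoxia and 3 rose and 1 fell in double knockout hypoxia. Atg2b, a lipid transfer protein gene, rose from 5.35 to 7.67 and from 5.00 to 7.45 FPKM (0.45 and 0.49), and Wdr45b rose by 0.20 and 0.27.

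Of 7 other soluble cargo receptors, Ncoa4 (0.19) and Tax1bp1 (0.10) rose and Nbr1 (-0.22) and Optn (-0.17) fell in wild type hypoxia. The Tax1bp1 call ended in 13 of 20 alternative settings. The same 4 genes moved the same way in double knockout cells, where 3 of the 7 fell in all. Of 9 ER-phagy receptors 0 passed in wild type hypoxia, and 2 rose and 5 fell in double knockout hypoxia, with Fam134b falling from 10.7 to 8.61 FPKM and Sec62 rising from 44.9 to 51.5 FPKM. That this list differs between genotypes is not shown, since 0 of its genes passed the test of the difference.

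Of 14 genes of fusion with lysosomes, 1 rose and 1 fell in wild type hypoxia (Vamp8 0.28, Vps39 -0.17) and 2 rose and 4 fell in double knockout hypoxia. Of 18 lysosomal genes with their regulator Tfeb, 1 rose in wild type hypoxia (Ctsb, 0.11, ended in 11 of 20 alternative settings), and 1 rose and 4 fell in double knockout hypoxia. The lysosomal calcium channel gene Mcoln1 fell from 27.7 to 16.6 FPKM there (-0.69, limma adjusted p = 7.72e-05). Of 15 genes of mTORC1 and AMPK control, 2 rose and 1 fell in each genotype: Ddit4, the mTORC1 inhibitor also called REDD1, rose from 33.9 to 55.3 FPKM in wild type (0.69, limma adjusted p = 3.53e-05) and from 42.8 to 60.4 FPKM in double knockout cells (0.49). Prkaa1, an AMPK catalytic subunit, rose by 0.13 and 0.26, and Sesn1 fell by 0.31 and 0.44.

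**Figure D5:**
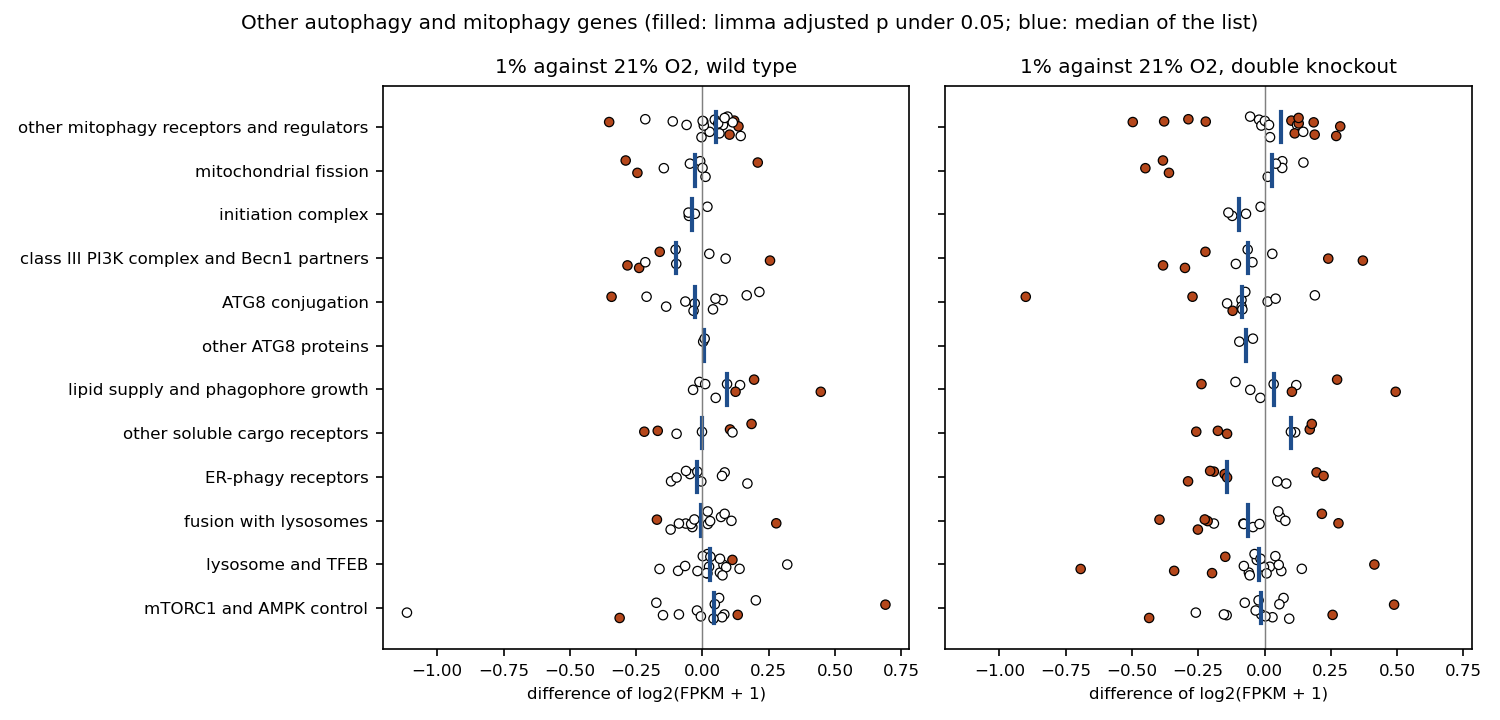
Differences of log2(FPKM + 1) between 1% and 21% oxygen for the other autophagy and mitophagy genes, by list, in wild type (left) and double knockout cells (right). Each point is a gene, filled where the limma adjusted p was under 0.05, and the blue bar is the median of the list. The medians stay close to 0, the furthest being -0.14 for ER-phagy receptors in double knockout cells. Called genes such as Ddit4 (0.69 and 0.49), Atg2b (0.45 and 0.49) and Atg16l2 (-0.34 and -0.90) stand out. The lowest point in wild type, a gene of mTORC1 and AMPK control at -1.11, was not called.

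Of 11 mitochondrially encoded mRNAs, 2 passed as higher in wild type hypoxia and 1 in double knockout hypoxia, against 10.5% and 19.6% of all genes. These were the very short mt-Atp8 in both genotypes and mt-Nd4l in wild type, which was listed at 0 in all 3 normoxic libraries, so no fold is given. The mt-Atp8 call in wild type ended in 10 of 20 alternative settings, and its double knockout groups overlapped. The 9 others did not pass with oxygen in either genotype. In normoxia mt-Nd4l was also called higher in double knockout than in wild type cells (mean 2.62 against 0 FPKM, log2 difference 1.72, limma adjusted p = 0.00979).

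Between genotypes, 5 of the 125 genes were higher and 3 lower in double knockout normoxia, and 5 were higher and 12 lower in double knockout hypoxia. Over all genes 8.16% passed in normoxia (3.84% higher, 4.32% lower) and 16.1% in hypoxia (7.68% higher, 8.42% lower), so the counts are not read as particular to these lists. Bcl2l1, which encodes the Beclin 1 partner Bcl-xL, was lower in double knockout cells at both oxygen levels (37.9 against 31.7 FPKM, then 35.3 against 30.3 FPKM, log2 differences -0.25 and -0.21). Fam134b was also lower at both, with log2 differences of -0.29 and -0.46. Mcoln1 was higher in double knockout normoxia by 0.39 (limma adjusted p = 0.0147). Tfeb (5.31 against 3.82 FPKM) and Hexa (182 against 145 FPKM) were lower in double knockout hypoxia.

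The genes most like Bnip3 over the 12 libraries, by Pearson's r of log2(FPKM + 1), were Ldha (0.998), Ankrd37 (0.998), Kdm3a (0.997), Pgam1 (0.997) and Tpi1 (0.997). All have the same normoxia and hypoxia groups, so such an r mainly counts a shared step between them. Ldha went from 289 to 713 FPKM and Ankrd37 from 3.22 to 72.8 FPKM in wild type. Those most like Gabarapl1 were Cdkn2a (0.954), Rpl18 (0.952), Ctsl (0.948), Dap3 (0.946) and Lyz2 (0.944). For each of these, wild type and double knockout libraries did not overlap, so here r mainly counts a shared step between genotypes. Lyz2, a lysozyme gene used as a myeloid marker, lay at 16.9 to 25.7 FPKM in wild type and 55.4 to 68.9 FPKM in double knockout libraries. Those most like Sqstm1 were Tpt1 (0.938), Necap2 (0.910), Bok (0.909), Sec22b (0.864) and Pkig (0.862).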

How the data were processed

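RNA-seq libraries of the 4 groups were analysed from 1 deposited table of 52655 transcripts. The submitters' processing notes name TopHat2 for alignment. The FPKM values were made and deposited by the authors. The sources used here do not name the tool that made them, versions, the genome build, the annotation or the use of strand.

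FPKM of transcripts were summed per gene identifier. Genes averaging 1 FPKM or more were tested on log2(FPKM + 1) with limma 3.58.1 in R 4.3.3 (1 coefficient per group, all 12 libraries, 8 residual degrees of freedom, variance trend, Benjamini-Hochberg threshold 0.05). No count model was fitted, since FPKM are not counts. Transcripts were tested the same way. The log2 scale with its pseudocount understates changes of genes at low levels. Low values of 3757 single-transcript genes move in steps of 1 fragment (275 bases taken off each length), which gave the depth estimate, and 88.9 to 94.2% of values lay within 0.1 of a whole fragment. Pearson's r was 0.9937 to 0.9955 within groups and 0.9831 to 0.9928 between groups. The fit was tested on simulated data.

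The 10 genes, the 13 other gene lists and the 4 marker lists were chosen with earlier results of these data known. From each list up to 4 genes with the smallest p among those passing in a comparison were eligible to be named, or up to 2 with the highest level where none passed, and the 5 most similar genes were named for Bnip3, Sqstm1 and Gabarapl1. Positions come from GENCODE M21 (GRCm38), near copies from blastn 2.17.0 against its transcripts, and promoters from RefSeq.

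Alternatives were each library left out, a fit of only the libraries compared, a block for the replicate number, quantile normalization, medians made equal, a fit without the trend, a pseudocount of 0.1, no filter, and a filter at 5 FPKM.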

Additional observations from a re-analysis of the deposited data

How the results depend on the processing

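Bnip3 and Bnip3l kept their hypoxia calls in both genotypes in all 20 alternatives, with log2 differences of 3.01 to 3.14 and 0.35 to 0.43 in wild type and 2.94 to 3.08 and 0.33 to 0.42 in double knockout cells. Under quantile normalization 5 of the 10 genes and 5 transcripts were called in double knockout hypoxia in place of 3 each, and Gabarapl1 reversed there to -0.107. The number called in the genotype comparison in normoxia was 2 under quantile normalization, 2 with equal library medians and 0 with the libraries of the comparison alone, against 1, and 1 to 3 when each library was left out in turn, with 3 without the first double knockout normoxia library. In hypoxia that range was 1 to 2, with 1 without the second wild type hypoxia library. The cause was not tested. In wild type hypoxia the range was 2 to 3, in double knockout hypoxia 2 to 3, and for its transcripts 2 to 4.

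The labels do not say whether libraries with the same number were paired. Their deviations from the group means correlated with r from -0.084 to 0.052, and in 2 of 12 comparisons the own number gave the highest r. With 3 libraries per group, these values cannot exclude a pairing. With the number as a block, 2 of the 10 genes were called in wild type hypoxia and 2 in double knockout hypoxia in place of 3 each, since Pink1 (adjusted p = 0.0528) and Map1lc3a (adjusted p = 0.0514) no longer passed. The block also left 1 gene of all tested for the difference of responses, in place of 22.

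Over all genes, leaving out libraries gave 1382 to 2393 calls in wild type hypoxia (2370), 583 to 935 and 1175 to 1873 for genotype in normoxia (929) and hypoxia (1832), and 1 to 39 for the difference (22). Counts moved over 1.5 times without the first (1382) or second (1495) wild type hypoxia library in wild type hypoxia, without the second wild type normoxia (583) or second double knockout normoxia library (617) for genotype in normoxia, and without the second wild type hypoxia (1175) or first double knockout hypoxia library (1185) for genotype in hypoxia. The difference had 12 calls under quantile normalization and 6 without the variance trend, and genotype in normoxia had 616 with its libraries alone. For transcripts, wild type hypoxia had 867 to 1736 (1739), and the difference 0 to 4, or 31 without the filter, against 0.

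Of the calls of other named genes, 12 of 27 in wild type hypoxia, 33 of 38 in double knockout hypoxia, 4 of 9 for genotype in normoxia and 6 of 17 in hypoxia held in every alternative. Also ended in most alternatives were Vmp1 in double knockout hypoxia, Uvrag for genotype in normoxia, and Tax1bp1 and Prkab1 for genotype in hypoxia. The filter at 5 FPKM removes Ulk1. With 3 libraries per group and FPKM without counts, small differences at the threshold are limited by precision.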
